A study of Mus musculus with 30 samples.

Results

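The genes described here are 48 regulators and effectors of the cell cycle and of DNA replication, listed by name and taken from a table of read counts by gene symbol. Each of the 48 stood on 1 of the 25611 rows of the table, and each was among the 14808 genes with enough counts to be tested. RNA was sequenced from mouse dendritic cells grown from bone marrow for 6 to 7 days in 200 ng/ml FLT3L, the cytokine that drives dendritic cell development. The marrow came from Rubcn KO mice, which lack the autophagy regulator Rubicon, or from Rubcn WT mice. Cells of each genotype were left untreated, were given OVA protein (ovalbumin, a soluble antigen) for 30 min or 4 h, or received apoptotic Jurkat cells for the same times. Jurkat is a leukaemia line of human T cells. Each of these 10 groups held 3 libraries, 30 in all. The FLT3L culture was common to all groups, and the sources used here do not give the age of the mice, how the allele was deleted, or whether the 3 libraries of a group came from separate animals. The p-values therefore measure the spread between these libraries, which may be technical.

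The cell cycle is driven by cyclins, which activate cyclin-dependent kinases (CDKs), and is held back by CDK inhibitors. D-type cyclins with CDK4 and CDK6, then cyclin E with CDK2, inactivate the retinoblastoma protein and so free E2F transcription factors, which switch on genes for loading replication origins, making nucleotides and copying DNA. Cyclin A and cyclin B with CDK1 then carry the cell into mitosis, where Aurora and Polo kinases, kinesins and the spindle checkpoint separate the chromosomes, and their genes are repressed by the DREAM complex in resting cells. FLT3L marrow cultures begin with dividing progenitors, so such cultures hold cycling precursors beside dendritic cells that have left the cycle. Levels below are counts per 1000000 (CPM) of the library size scaled by the trimmed mean of M-values (TMM), and an adjusted p is the Benjamini-Hochberg value of edgeR's quasi-likelihood test over all genes tested, with a gene called where it was under 0.05. A value given after ± beside a log2 fold change is its standard error (SE), taken from the fit.

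The libraries held 9.73 M to 51.6 M counts (M, 1000000), of which 59073 to 324837 fell on the 48 genes. Rubcn itself was lower in the KO libraries than in the WT libraries of every condition with no overlap, at 70.4 to 75.8 CPM against 95.6 to 105 CPM in untreated cells, so part of its transcript was still counted. All 16 conventional and all 12 plasmacytoid dendritic cell markers listed were above 1 CPM in every group. How reads of the human Jurkat cells were treated is not stated in the sources used here. Of 26 T-lineage markers tested, 21 were called higher and 4 lower after 4 h of Jurkat cells in WT cells, and 17 higher and 5 lower in KO cells. The T-cell receptor gene Cd3e went from 0.0778 to 6.09 CPM in WT cells, and its partner Cd3d from 0.112 to 0.0387 CPM, where 3 counts in a library are worth 0.0612 to 0.0901 CPM. Of the markers, 12 that were under 1 CPM in both untreated groups, a subset chosen after their values were seen, summed to 2.92 CPM (2.80 to 3.08) in untreated WT cells, 23.5 CPM (22.1 to 24.4) after 30 min and 67.7 CPM (54.4 to 74.4) after 4 h of Jurkat cells. In KO cells the same 12 summed to 3.64 CPM (2.83 to 4.21), 15.1 CPM (11.7 to 17.0) and 48.7 CPM (42.8 to 55.6). They stayed between 2.47 and 3.97 CPM in the libraries given OVA. Their part in the Jurkat results was not tested. KO replicate 2 of Jurkat 4 h stood apart: Rn45s, the ribosomal RNA precursor, took 3.90% of its counts, against 0.0949% to 0.384% in the other 29 libraries. Counts of called genes at Jurkat 4 h in KO cells are therefore also given without it.

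The 6 promoters below are shown because their genes fell after 4 h of Jurkat cells and carry motifs of the control that cell cycle genes are known for, E2F sites at replication genes and the cell cycle genes homology region (CHR), often beside a CCAAT box, at mitotic genes. The windows run from 250 bases before to 50 bases after the annotated start and come from RefSeq on GRCm38.p6, where 38 of the 48 genes matched. For each gene the first listed window that held a match is shown, so the start shown was chosen by the motifs. The Cdc6 gene of the counts begins at chr11:98907889, so the window shown for it lies wholly downstream of that start. They lie at chr5:138171834-138172133 on the minus strand (Mcm7), chr8:75109259-75109558 on the plus strand (Mcm5), chr11:98907901-98908200 on the plus strand (Cdc6), chr12:24708004-24708303 on the plus strand (Rrm2), chr19:37376132-37376431 on the plus strand (Kif11) and chr2:118597961-118598260 on the plus strand (Bub1b). Each is written 5′ to 3′ on the strand of its gene, and capitals mark every match to the motifs searched.
Mcm7: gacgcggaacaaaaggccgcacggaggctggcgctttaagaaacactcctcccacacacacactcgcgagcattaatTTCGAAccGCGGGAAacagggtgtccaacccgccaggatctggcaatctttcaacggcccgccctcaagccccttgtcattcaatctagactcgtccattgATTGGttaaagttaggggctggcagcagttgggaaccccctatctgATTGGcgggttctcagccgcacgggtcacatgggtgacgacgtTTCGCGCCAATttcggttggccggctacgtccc
Mcm5: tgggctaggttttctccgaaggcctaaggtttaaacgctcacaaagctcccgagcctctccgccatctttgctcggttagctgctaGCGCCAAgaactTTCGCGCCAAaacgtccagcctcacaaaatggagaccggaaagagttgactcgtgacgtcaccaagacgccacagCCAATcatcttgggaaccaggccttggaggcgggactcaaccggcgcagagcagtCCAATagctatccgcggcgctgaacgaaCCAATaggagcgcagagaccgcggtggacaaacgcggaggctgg
Cdc6: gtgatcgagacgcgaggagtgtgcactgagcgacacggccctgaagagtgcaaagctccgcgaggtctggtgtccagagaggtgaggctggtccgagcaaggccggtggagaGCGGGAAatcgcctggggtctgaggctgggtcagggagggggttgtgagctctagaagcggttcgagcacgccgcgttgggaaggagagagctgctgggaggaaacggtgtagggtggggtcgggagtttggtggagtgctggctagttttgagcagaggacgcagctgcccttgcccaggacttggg
Rrm2: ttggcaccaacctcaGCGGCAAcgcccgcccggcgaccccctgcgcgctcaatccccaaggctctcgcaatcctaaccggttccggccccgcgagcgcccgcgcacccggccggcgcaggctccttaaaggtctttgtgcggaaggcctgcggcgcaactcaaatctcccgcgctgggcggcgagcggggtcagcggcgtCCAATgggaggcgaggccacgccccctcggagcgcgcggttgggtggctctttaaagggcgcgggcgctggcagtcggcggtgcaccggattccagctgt
Kif11: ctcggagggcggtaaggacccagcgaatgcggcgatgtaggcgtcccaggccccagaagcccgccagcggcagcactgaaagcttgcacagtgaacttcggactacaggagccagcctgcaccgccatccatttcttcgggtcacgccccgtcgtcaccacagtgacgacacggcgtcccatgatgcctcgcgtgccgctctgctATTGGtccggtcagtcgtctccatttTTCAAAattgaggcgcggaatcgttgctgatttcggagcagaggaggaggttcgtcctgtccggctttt
Bub1b: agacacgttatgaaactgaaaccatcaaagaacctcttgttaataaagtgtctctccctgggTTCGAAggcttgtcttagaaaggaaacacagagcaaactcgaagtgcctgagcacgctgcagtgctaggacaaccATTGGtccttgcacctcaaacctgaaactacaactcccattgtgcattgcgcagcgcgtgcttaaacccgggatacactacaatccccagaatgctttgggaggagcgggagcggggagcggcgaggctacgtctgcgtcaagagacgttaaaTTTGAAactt
The motifs were read on both strands. For the CHR they were TTTGAA and its variant TTCGAA, which is its own reverse complement and was counted once. For the E2F core they were TTCCCGC, its variant TTGGCGC, its variant TTCGCGC and its variant TTGCCGC, and the last motif was CCAAT. In Mcm7 the E2F matches starting at 17 and 20 bases after the start overlap each other and a CCAAT match, and in Mcm5 the E2F matches starting at -152 and -149 overlap each other. The 2 CHR matches of Bub1b start at -188 and 40, and the match of Kif11 starts at -19, counted from the annotated start.

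The motifs were not spread evenly over the roles. A gene was counted where any of its windows held a match, and there were 32851 windows for 27025 genes. A CHR match was found for 12 of 15 genes for entry into mitosis, spindle, chromosome and checkpoint (80.0%). It was found for 2 of 11 licensing, nucleotide and fork genes and for 21.7% of the 27025 genes. An E2F match was found for 8 of 11 of those replication genes (72.7%), 3 of 15 mitotic genes and 10.9% of all genes. CCAAT was found for 14 of 15 mitotic genes, 8 of 11 replication genes, 7 of 12 genes of the other roles and 41.1% of all genes. A match describes these letters in the window and is not a measured binding site.

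In untreated WT cells every one of the 48 genes was detected, and per kilobase of exon their levels ran from 3.02 ± 0.196 RPKM (SD, n = 3) for Ccne2, an E-type cyclin, to 171 ± 4.36 RPKM for Ccnd1, which encodes cyclin D1. After Ccnd1 came Pcna, the sliding clamp of the replication fork, at 119 ± 4.45 RPKM, Top2a, the topoisomerase that untangles chromosomes, at 103 ± 1.68 RPKM, and Ccnd3, cyclin D3, at 95.7 ± 5.51 RPKM. Ccnd1 stood above Pcna beyond the spread of the libraries, whereas the ranges of Top2a and Ccnd3 came close, at 101 to 104 and 89.9 to 101 RPKM. The proliferation marker Mki67 stood at 66.5 ± 1.44 RPKM and the helicase subunit Mcm5 at 60.1 ± 2.24 RPKM. Cdkn1a, which encodes the CDK inhibitor p21, was in the middle of the order, 24 of 48 from the highest, at 28.2 ± 0.866 RPKM, and Ccnd2, cyclin D2, lower at 18.3 ± 0.550 RPKM.

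The comparison with the widest reach over these genes was 4 h of apoptotic Jurkat cells against untreated cells. In WT cells all 48 genes were called, 8 higher and 40 lower, where 38.9% of all genes tested were called higher and 40.6% lower (79.5% in all). In KO cells 46 were called, 6 higher and 40 lower, where 37.5% of all genes tested were called higher and 41.0% lower (78.5% in all). Most genes of the cells were thus called, those of the cell cycle more often lower: the median log2 fold change of the 48 was -0.61 in WT and -0.60 in KO cells, beside -0.021 and -0.033 over all genes tested. Of the 48, 6 were called higher and 39 lower in both genotypes, and Myc was called in opposite directions. Every call held when any 1 library was left out, except that of Tpx2 in WT cells, which was lost without WT replicate 2 of Jurkat 4 h, untreated WT replicate 1 or untreated WT replicate 3 (0.058 to 0.087 on the log2 scale). In WT cells 2 genes rose and 9 fell by at least 2-fold. Without KO replicate 2 of Jurkat 4 h the KO counts were the same, 6 higher and 40 lower. Markers of other cells and of the dendritic cells moved as well: from untreated to Jurkat 4 h in WT cells the 16 conventional dendritic cell markers summed to 19176 ± 1250.2 and 29608 ± 857 CPM, the 12 plasmacytoid ones to 3621 ± 41.2 and 5452 ± 538 CPM, the 12 stromal ones to 744 ± 42.7 and 1197 ± 84.2 CPM, and the 12 basophil and mast cell ones to 26.7 ± 3.27 and 62.4 ± 7.67 CPM (SD, n = 3). Genes within a list differed, so a sum does not stand for each of them. Among conventional markers Cd74 (9258 to 17067 CPM) and H2-Ab1 (4489 to 8505 CPM) rose. Flt3 (567 to 230 CPM) and Clec10a (161 to 12.7 CPM) of that list fell. Among plasmacytoid markers Bst2 rose (468 to 980 CPM) and Siglech fell (800 to 717 CPM). In the basophil list Hdc went from 1.61 to 31.6 CPM and Mcpt8 from 3.57 to 4.04 CPM. The 23 progenitor and granulocyte precursor markers, on 24 rows, had 407 ± 15.5 and 424 ± 11.0 CPM, ranges that overlap. Ranges of the 12 monocyte and macrophage markers overlapped too, at 4251 ± 239 and 3922 ± 198 CPM. The part of these lists in the changes below was not tested. RNA from a bulk culture cannot tell fewer cells of a type from less RNA per cell.

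**Figure D1:**
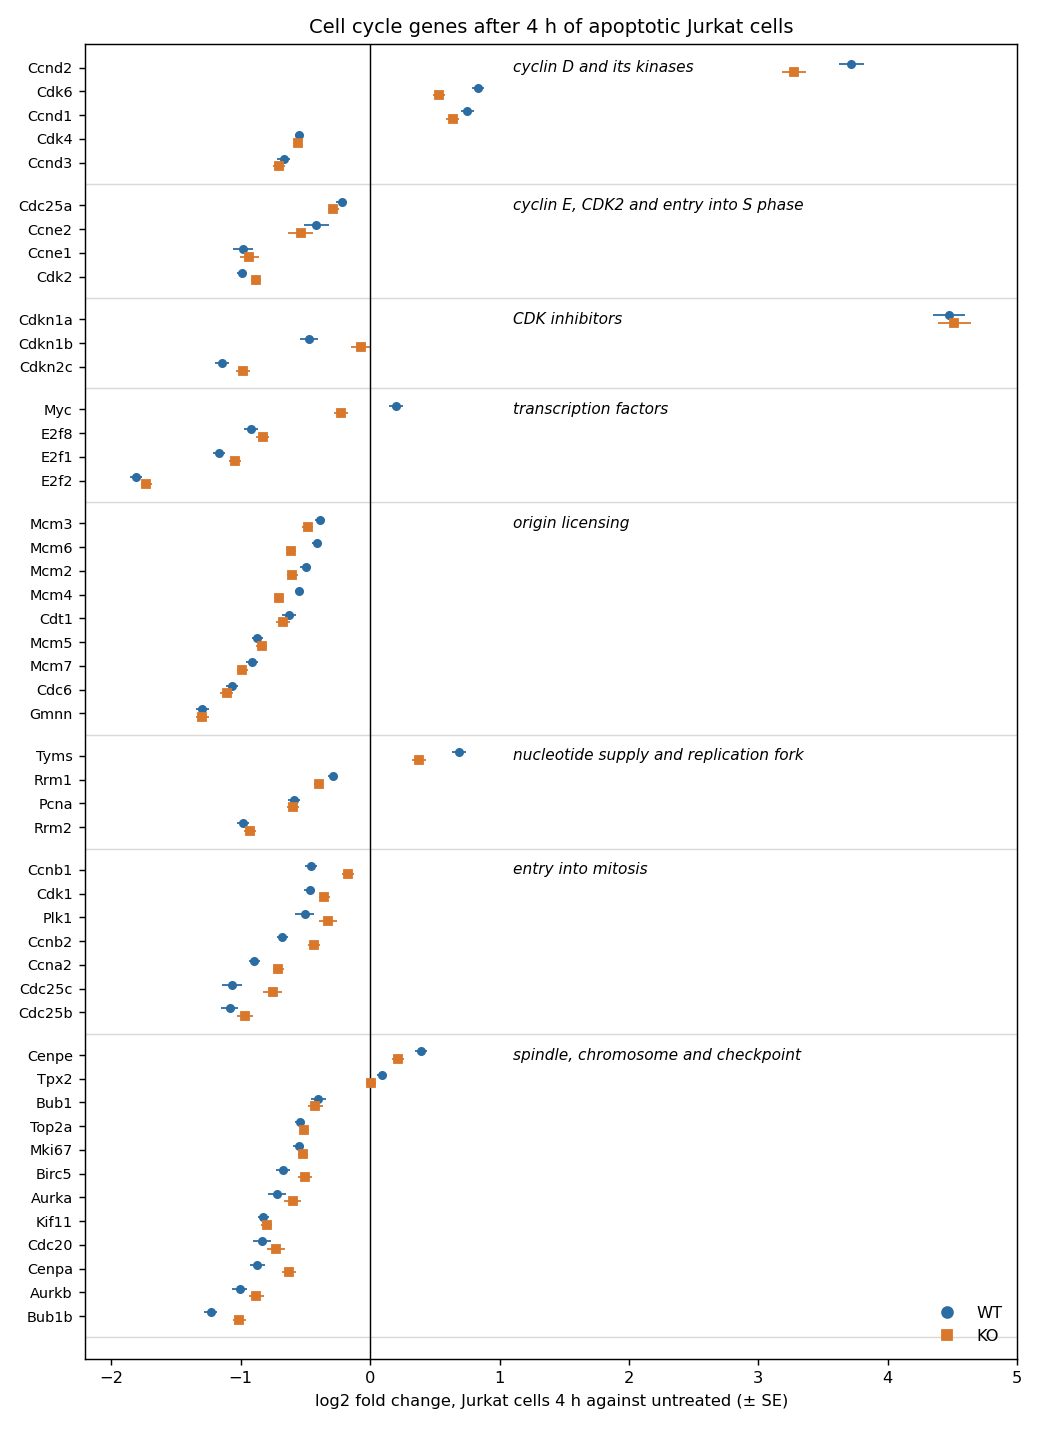
Log2 fold change of each of the 48 genes after 4 h of apoptotic Jurkat cells against untreated cells, grouped by role, in WT (circles) and KO (squares) cells, with the standard error of the fit as bars. Most genes lie left of 0 in both genotypes, while Cdkn1a (4.47 and 4.51) and Ccnd2 (3.72 and 3.27) lie far to the right.

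Cdkn1a, which stops CDK2 and binds PCNA and is a well-known target of p53, rose more than any other of the 48. Its level was 74.3, 76.9 and 79.0 CPM in the untreated WT libraries and 1659.7, 1689.6 and 1766 CPM after 4 h of Jurkat cells, a log2 fold change of 4.47 ± 0.12 (adjusted p = 2.7e-23). In KO cells it was 73.9, 71.1 and 69.3 CPM untreated and 1656, 1568 and 1673 CPM with Jurkat cells, a log2 fold change of 4.51 ± 0.12 (adjusted p = 2.8e-23). The groups were more than an order of magnitude apart, and the difference between the genotypes' responses was 0.041 ± 0.15 on the log2 scale (approximate 95% interval -0.26 to 0.34). The other CDK inhibitors did not share this rise. Cdkn2c, which encodes the CDK4 and CDK6 inhibitor p18, fell from 52.7, 52.8 and 51.4 CPM to 23.7, 21.9 and 25.3 CPM in WT cells, a log2 fold change of -1.15 ± 0.052, and by 0.98 in KO cells. Cdkn1b, which encodes p27, fell in WT cells from 105, 87.9 and 84.0 CPM to 62.6, 70.5 and 66.7 CPM, a log2 fold change of -0.47 ± 0.071. In KO cells Cdkn1b had 81.0, 75.9 and 78.6 CPM before and 66.4, 74.5 and 82.7 CPM after, ranges that overlap, with a log2 fold change of -0.074 ± 0.071 that was not called.

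The D-type cyclins split. Ccnd2 rose from 120.0, 121 and 127 CPM to 1458, 1823 and 1566 CPM in WT cells and from 131, 127 and 129.9 CPM to 1301, 1176 and 1269 CPM in KO cells, log2 fold changes of 3.72 ± 0.095 and 3.27 ± 0.093. Ccnd1 rose from 636, 623 and 655 CPM to 1034, 1173 and 1016 CPM in WT and from 579.8, 548 and 547 CPM to 895, 807 and 906 CPM in KO cells. Its libraries did not overlap between untreated and treated cells of either genotype, and its log2 fold changes were 0.75 ± 0.049 and 0.64 ± 0.049. Ccnd3 fell in both, by 0.67 in WT and 0.70 in KO cells on the log2 scale. Their partner kinases split as well: Cdk6 rose from 97.2, 88.4 and 92.5 CPM to 161, 167 and 167 CPM in WT cells, while Cdk4 fell from 167, 177 and 174 CPM to 120.2, 115 and 119 CPM. Together Cdkn1a, Ccnd1 and Ccnd2, singled out after their values were seen, made up 13.8% of the CPM of the 48 genes in untreated WT cells and 54.9% after 4 h of Jurkat cells. The other 45 summed to 5231 ± 68.3 CPM (SD, n = 3) before and 3602 ± 68.1 CPM after in WT, and to 5031 ± 164 and 3433 ± 26.5 CPM in KO cells.

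**Figure D2:**
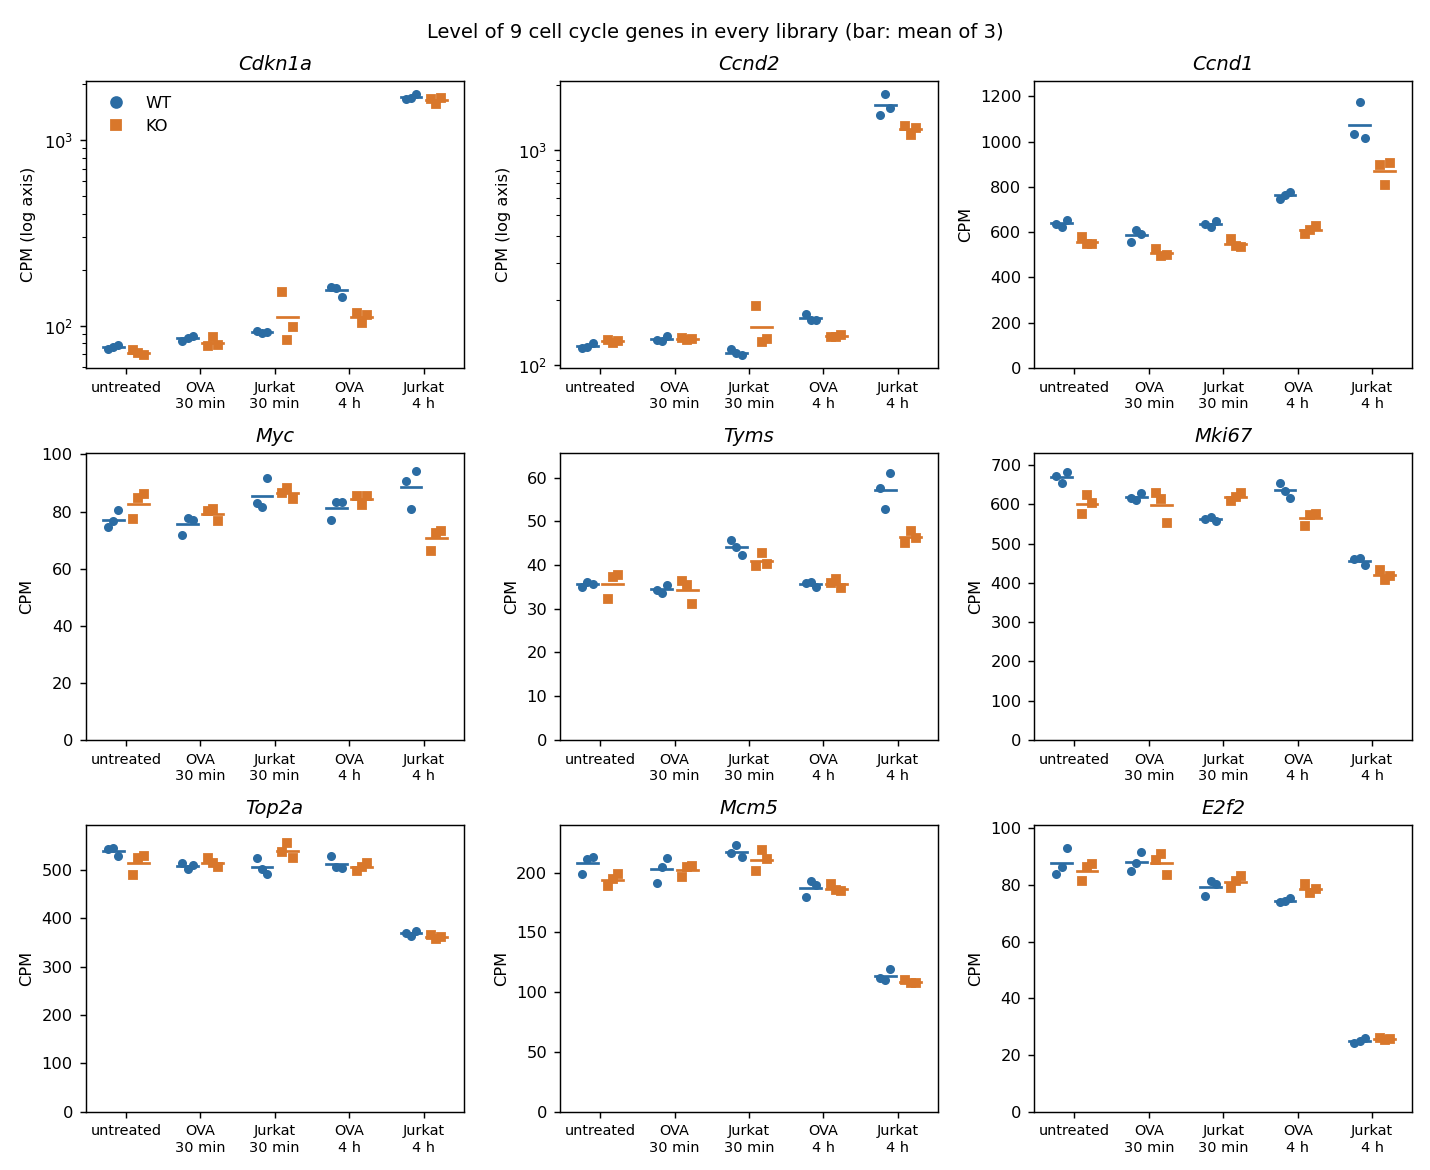
Level in CPM of 9 cell cycle genes in every library of the 5 conditions, WT as circles and KO as squares, with a bar at the mean of 3; Cdkn1a and Ccnd2 are on a log axis. The Jurkat 4 h libraries stand apart from all others for Cdkn1a, Ccnd2, Ccnd1, Mki67, Top2a, Mcm5 and E2f2, and 1 KO library of Jurkat 30 min is high for Cdkn1a (151 CPM) and Ccnd2 (189 CPM).

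All 4 genes of the cyclin E group fell in both genotypes. Cdk2, the kinase that fires origins, went from 91.0, 96.5 and 95.5 CPM to 51.2, 46.3 and 45.1 CPM in WT cells, a log2 fold change of -0.99 ± 0.039 (adjusted p = 1.4e-19). Ccne1 fell by 0.98 in WT and 0.93 in KO cells on the log2 scale, and Cdc25a, the phosphatase that activates CDK2, by 0.22 and 0.28. Ccne2 had the lowest level of the 48 in untreated WT cells and fell by 0.42 and 0.54.

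The 3 E2F genes fell further than most. E2f2, an activator E2F, went from 83.8, 86.5 and 93.0 CPM to 24.1, 24.9 and 26.1 CPM in WT cells and from 81.2, 86.4 and 87.5 CPM to 25.9, 25.4 and 25.7 CPM in KO cells. Its log2 fold changes of -1.81 ± 0.045 (adjusted p = 2.6e-24) and -1.73 ± 0.045 (adjusted p = 6.4e-24) were the most negative of the 48 in each genotype. E2f1, the other activator listed, went from 54.3, 56.5 and 55.4 CPM to 24.9, 24.6 and 24.5 CPM in WT cells and from 50.6, 53.4 and 54.9 CPM to 25.1, 25.6 and 26.3 CPM in KO cells. The repressor E2f8 fell by 0.92 and 0.83 on the log2 scale. Myc, a transcription factor that drives growth and entry into the cycle, moved the other way in WT cells, from 74.5, 76.5 and 80.4 CPM to 90.8, 80.9 and 94.4 CPM (0.20 ± 0.054, adjusted p = 0.0013). In KO cells it fell from 77.5, 84.8 and 86.0 CPM to 66.2, 72.6 and 73.2 CPM (-0.23 ± 0.054, adjusted p = 0.00038). Scaling by total counts gave Myc a log2 fold change of -0.20 in WT cells, so its rise there rests on the TMM scaling, under which all genes had a median near 0.

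Origin licensing, the loading of the MCM helicase before S phase, was lower throughout, with 9 of 9 genes called in both genotypes. The loss was deepest for Gmnn, which encodes geminin, the inhibitor that blocks reloading: 32.1, 34.1 and 33.2 CPM became 14.0, 12.5 and 14.0 CPM in WT cells, and 29.3, 31.6 and 31.2 CPM became 12.6, 12.1 and 12.8 CPM in KO cells. Cdc6, which loads the helicase together with CDT1, fell by 1.07 in WT and 1.11 in KO cells on the log2 scale. The 6 MCM subunits ran from -0.39 for Mcm3 to -0.91 for Mcm7 in WT cells, and from -0.48 to -0.99 for the same genes in KO cells. Mcm5 itself had 199, 211 and 213 CPM untreated and 112, 109.9 and 119 CPM with Jurkat cells in WT, and 189, 194 and 199 CPM and 110.0, 108 and 107 CPM in KO cells. Although the 6 subunits form 1 ring, their transcripts did not fall by equal amounts.

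Among the genes of nucleotide supply and the fork, 3 of 4 fell and Tyms rose. Rrm2, the regulated subunit of ribonucleotide reductase, fell by 0.98 in WT and 0.93 in KO cells on the log2 scale, while its partner Rrm1 fell by 0.29 and 0.40. Tyms, thymidylate synthase, went from 34.9, 36.2 and 35.6 CPM to 57.6, 52.9 and 61.0 CPM in WT cells and from 32.3, 37.2 and 37.6 CPM to 45.0, 47.8 and 46.1 CPM in KO cells. The WT rise was 0.69 ± 0.054 (adjusted p = 1.8e-12) on the log2 scale.

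The genes for entry into mitosis and for the spindle fell in nearly all cases. Of the 7 entry genes all 7 were lower in both genotypes, led in WT cells by Cdc25b and Cdc25c, the phosphatases that activate CDK1, at -1.09 ± 0.066 and -1.07 ± 0.077 on the log2 scale. Of the 12 spindle, chromosome and checkpoint genes 10 were lower in both. Mki67 went from 671, 654 and 683 CPM to 459.7, 463 and 446 CPM in WT and from 574, 624 and 603 CPM to 433, 408 and 416 CPM in KO cells. Top2a went from 542, 545 and 529 CPM to 370.4, 363 and 374 CPM in WT and from 489, 525 and 529 CPM to 366, 356 and 361 CPM in KO cells. The checkpoint kinase gene Bub1b, whose promoter is shown above, fell further than either, by 1.23 in WT and 1.01 in KO cells. The 2 exceptions were Cenpe, a kinetochore kinesin, with log2 fold changes of 0.40 ± 0.046 in WT and 0.22 ± 0.046 in KO cells, and Tpx2, a spindle assembly factor, with 0.091 ± 0.037 in WT and 0.0060 ± 0.037, not called, in KO cells. With total counts as the scale, Cenpe had -0.0078 in WT and -0.12 in KO cells and Tpx2 had -0.31 in WT cells, so the direction of both depends on the scaling, which moved the median of all genes to -0.42 in WT and -0.37 in KO cells.

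**Figure D3:**
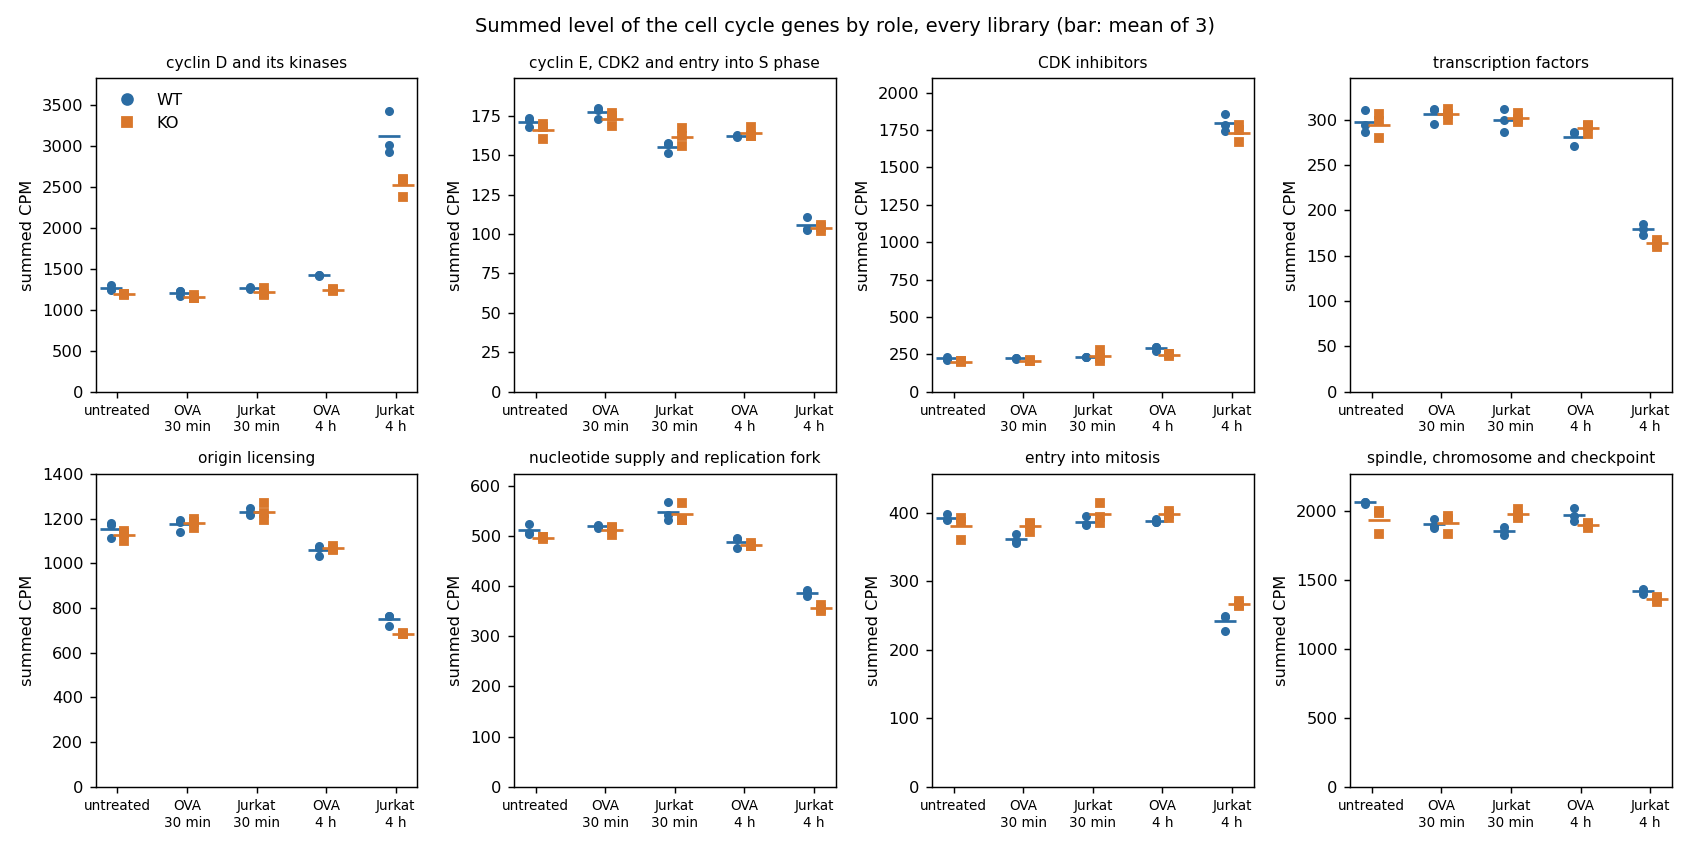
Summed CPM of the genes of each role in every library of the 5 conditions, WT as circles and KO as squares, with a bar at the mean of 3. After 4 h of Jurkat cells the sums of the cyclin D group and of the CDK inhibitors lie above every other library, and the sums of the other 6 roles lie below.

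Summed by role, WT cells went after 4 h of Jurkat cells from 1154 ± 37.5 to 749.6 ± 24.2 CPM for licensing (SD, n = 3), from 393 ± 4.75 to 242 ± 12.4 CPM for entry into mitosis and from 2059.5 ± 7.32 to 1418 ± 18.2 CPM for the spindle, chromosome and checkpoint genes. The cyclin D group went from 1261 ± 30.1 to 3121 ± 267 CPM and the CDK inhibitors from 221 ± 9.43 to 1795 ± 57.1 CPM, rises carried by Ccnd2 and Cdkn1a. The plot of summed levels shows no overlap between these Jurkat 4 h libraries and the untreated ones in any role.

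Related genes outside the 48, from lists made with earlier results of these data known, moved in the same comparison as follows. Of 50 other DNA replication genes, 6 rose and 43 fell in WT cells and 4 rose and 43 fell in KO cells. Clspn, an adaptor of the replication checkpoint, had a log2 fold change of -1.43 ± 0.052 and Rpa1, the single-strand binding protein, -1.04 ± 0.036 in WT cells, while Timeless, of the fork protection complex, had 0.77 ± 0.047. Of 60 other mitotic genes, 4 rose and 53 fell in each genotype, with Kif23, a kinesin of cytokinesis, at -1.90 ± 0.044 and Pttg1, securin, at 2.97 ± 0.080 in WT cells. Of 28 other CDK inhibitors, E2F and pocket proteins and their partners, 8 rose and 14 fell in WT and 8 rose and 16 fell in KO cells. The retinoblastoma relatives went opposite ways in WT cells, Rbl1 (p107) by 0.97 ± 0.052 and Rbl2 (p130) by -1.95 ± 0.045, and the antiproliferative gene Btg1 rose by 2.37 ± 0.062. Of 20 p53 target genes, 10 rose and 8 fell in WT and 10 rose and 7 fell in KO cells: Mdm2, which degrades p53, had 1.26 ± 0.034 and Pmaip1 (Noxa) 2.61 ± 0.078 in WT cells, whereas Sesn1 had -1.45 ± 0.054. Counts of each list stand beside the 38.9% higher and 40.6% lower of all genes tested in WT cells, to which those of the p53 list are close, and Cdkn1a's rise was larger than that of either named target.

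The genotypes differed in how far some of these genes moved by 4 h of Jurkat cells. The difference between the KO and WT responses was called for 9 of the 48 genes, 3 more positive and 6 more negative in KO cells, where 1.72% of all genes tested were called higher and 2.55% lower (4.26% in all). Myc had the smallest p of the 9, with a difference of -0.43 ± 0.076 (adjusted p = 0.0017) on the log2 scale. Cdk6 (-0.30 ± 0.069), Ccnd2 (-0.44 ± 0.12), Tyms (-0.31 ± 0.077), Mcm6 (-0.20 ± 0.047) and Mcm4 (-0.15 ± 0.043) were the other negative differences. The positive ones were Cdkn1b (0.40 ± 0.10) and the B-type cyclins Ccnb1 (0.28 ± 0.066) and Ccnb2 (0.24 ± 0.062). Leaving out each of the 12 libraries in turn kept the call in all 12 fits for Myc, Cdk6, Ccnb1 and Mcm6, and in 3 to 9 of 12 for the others. Their number was 5 without KO replicate 3 of Jurkat 4 h and 5 without untreated KO replicate 2, 7 (3 more positive, 4 more negative) without KO replicate 2 of Jurkat 4 h, and 5 (2 more positive, 3 more negative) when the compared groups were fitted alone. With total counts as the scale 7 were more positive and 3 more negative.

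Soluble OVA gave much smaller changes. After 4 h in WT cells 13 of the 48 were called, 3 higher and 10 lower, where 11.9% of all genes tested were called higher and 11.7% lower (23.5% in all). In KO cells 4 were called, 2 in each direction, where 5.94% of all genes tested were called higher and 5.69% lower (11.6% in all). With each library left out in turn, 6 of the 13 kept their call throughout in WT cells and 1 of the 4, Cdkn1a, in KO cells, where 2 were called without untreated KO replicate 2. Cdkn1a was again the gene that rose most, to 162, 159.5 and 143 CPM in WT (1.01 ± 0.11, adjusted p = 6.9e-08) and to 116, 103 and 114 CPM in KO cells (0.64 ± 0.11, adjusted p = 0.00024). Every one of these 6 libraries was above every untreated library, yet far below the Jurkat libraries of the same time. In WT cells Ccnd1 reached 748, 763 and 777 CPM (0.26 ± 0.049 on the log2 scale) and Ccnd2 174, 161 and 162 CPM (0.43 ± 0.087). In KO cells Ccnd1 had 593, 610.0 and 626 CPM and Ccnd2 135, 136 and 139 CPM, with log2 fold changes of 0.13 ± 0.049 and 0.080 ± 0.087 that were not called. The KO rise of Ccnd1 was called when edgeR was fitted on the compared groups alone (0.13, adjusted p = 0.027).

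The falls with OVA at 4 h in WT cells included 5 of 9 licensing genes. E2f2 had 73.8, 74.3 and 75.4 CPM, a log2 fold change of -0.24 ± 0.041 (adjusted p = 7.8e-05), and Cdk2 83.4, 81.9 and 85.3 CPM, a change of -0.18 ± 0.038. Mcm7 went to 144, 146 and 152 CPM from 163, 169 and 169 CPM untreated (-0.18 ± 0.043). Mcm5 had 179, 193 and 190.0 CPM in WT (-0.15 ± 0.041) and 190.1, 186 and 184 CPM in KO cells, and Mki67 and Top2a were not called in either genotype. In KO cells Mcm4 fell from 127, 128 and 126 CPM to 117, 118 and 119 CPM and Mcm6 from 236, 244 and 239.7 CPM to 223, 222 and 218 CPM, both of which also fell in WT cells. Ccnb1 rose in KO cells, from 33.7, 37.3 and 36.0 CPM to 40.6, 39.2 and 40.8 CPM (0.17 ± 0.045, adjusted p = 0.011). The difference between the genotypes' responses to OVA at 4 h was called by edgeR for 0 of the 48 genes, with 8 at an unadjusted p under 0.05 and 0 called by DESeq2. Fitted on the compared groups alone, edgeR called 1, Ccnd2, at -0.35 (adjusted p = 0.018). In that contrast 0% of all genes tested were called higher and 0.0405% lower (0.0405% in all). Of the p53 targets 8 of 20 rose and 1 fell in WT cells, where 11.9% of all genes tested rose and 11.7% fell. Among them Pmaip1 had 0.58 ± 0.075 and Plk2 0.93 ± 0.13.

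Within 30 min of adding Jurkat cells, 19 of the 48 genes were called in WT cells, 8 higher and 11 lower, where 14.2% of all genes tested were called higher and 14.5% lower (28.7% in all). In KO cells 14 were called, 13 higher and 1 lower, where 8.72% of all genes tested were called higher and 8.26% lower (17.0% in all). With each library left out in turn, 9 of the 19 and 3 of the 14 kept their call throughout. No called gene moved by 2-fold at this time. The genes that rose in WT cells came mostly from replication: 5 of 9 licensing genes and 2 of 4 genes of nucleotide supply and the fork. Tyms went from 34.9, 36.2 and 35.6 CPM to 45.8, 44.2 and 42.4 CPM (0.31 ± 0.054, adjusted p = 7.7e-05), Mcm2 from 122, 128 and 131 CPM to 141, 146 and 142 CPM (0.17 ± 0.041), and Rrm2 from 102, 107 and 106 CPM to 113, 117 and 118 CPM (0.15 ± 0.043). The comparisons at 30 min and 4 h share the untreated libraries: side by side, Mcm2 had 0.17 at 30 min and -0.50 at 4 h on the log2 scale, and Rrm2 0.15 and -0.98.

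The genes that fell in WT cells at 30 min came mostly from mitosis, with 7 of 12 spindle, chromosome and checkpoint genes called lower. Mki67 went to 564, 567 and 557 CPM (-0.25 ± 0.040, adjusted p = 2.8e-05), Bub1b from 116, 119 and 120.4 CPM to 104, 105 and 102 CPM (-0.20 ± 0.048) and Cdk2 to 82.4, 85.4 and 84.4 CPM (-0.17 ± 0.038). The libraries of these 3 genes did not overlap those of untreated cells. Top2a had 524, 502 and 492 CPM and Mcm5 216, 223 and 213 CPM in WT cells, neither called, with Mcm5 at 202, 219 and 211 CPM and Top2a at 537, 555 and 524 CPM in KO cells. Myc had 83.1, 81.7 and 91.7 CPM in WT cells, a rise of 0.15 ± 0.053, and 86.6, 88.2 and 84.2 CPM in KO cells, not called. The WT call of Myc held in 3 of 6 fits that left out 1 library, with 0.082 as the lowest value.

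In KO cells 8 of 9 licensing genes and 3 of 4 genes of nucleotide supply and the fork rose at 30 min of Jurkat cells, each by a log2 fold change under 0.21. Mcm4 went from 127, 128 and 126 CPM to 138, 143 and 136 CPM (0.12 ± 0.030, adjusted p = 0.0043) and Gmnn from 29.3, 31.6 and 31.2 CPM to 34.0, 37.5 and 33.3 CPM (0.19 ± 0.047). The lone fall was Aurka, Aurora kinase A, from 37.3, 41.0 and 42.4 CPM to 33.0, 36.0 and 36.9 CPM (-0.19 ± 0.063). Cdkn1a had the largest change, but its 3 libraries were uneven at 151, 83.1 and 98.5 CPM, and its log2 fold change of 0.64 ± 0.11 (adjusted p = 0.00016) became 0.35 without replicate 1, still called. In WT cells Cdkn1a had 93.3, 91.6 and 92.4 CPM, against 74.3, 76.9 and 79.0 CPM untreated, a change that was not called. Fitted on the compared groups alone, edgeR called this WT rise, at 0.27 on the log2 scale (adjusted p = 0.00089). The count of 14 in KO cells fell to 4 without KO replicate 2 of Jurkat 30 min, to 8 without untreated KO replicate 1, and to 9 (7 higher, 2 lower) with total counts as the scale, so it rests on small changes near the threshold. Of the 48, 7 were called higher and 1 lower in both genotypes. The difference between the responses was called by edgeR for 0 of the 48, where 0% of all genes tested were called higher and 0.00675% lower (0.00675% in all), with 8 at an unadjusted p under 0.05 and 3 called by DESeq2 or by edgeR without KO replicate 2.

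OVA for 30 min changed few of these genes. In WT cells 8 were called, 3 higher and 5 lower, where 5.51% of all genes tested were called higher and 5.15% lower (10.7% in all). In KO cells 1 was called, where 1.88% of all genes tested were called higher and 1.88% lower (3.77% in all). The gene called in both genotypes was Cdt1, a helicase loader, which rose from 47.8, 47.3 and 51.6 CPM to 54.2, 56.1 and 57.5 CPM in WT (0.19 ± 0.052) and from 43.9, 47.8 and 49.6 CPM to 54.8, 58.6 and 55.1 CPM in KO cells (0.26 ± 0.053, adjusted p = 0.0044). In WT cells E2f8 rose from 73.3, 75.0 and 82.3 CPM to 85.9, 91.7 and 85.1 CPM (0.19 ± 0.050) and Mcm4 from 125, 123 and 129 CPM to 132, 137 and 136 CPM (0.098 ± 0.030). All 5 falls were of mitotic genes. Tpx2 went from 99.1, 107 and 103 CPM to 85.4, 88.4 and 90.8 CPM (-0.23 ± 0.037, adjusted p = 0.00015), Bub1b from 116, 119 and 120.4 CPM to 98.1, 102 and 105 CPM (-0.22 ± 0.048) and Plk1, Polo-like kinase 1, from 46.8, 51.6 and 52.7 CPM to 35.6, 41.9 and 43.8 CPM (-0.32 ± 0.072). Aurka and Cenpe were the other 2, and 12 of 60 other mitotic genes fell and 0 rose in the same comparison, led by Cenpf at -0.29 ± 0.049. The WT count of 8 was 3 without untreated WT replicate 2 and 4 without WT replicate 2 of OVA 30 min, and Bub1b and Tpx2 kept their call whichever library was left out. The KO call of Cdt1 was lost without KO replicate 2 of OVA 30 min. The difference between the genotypes' responses to OVA at 30 min was called by edgeR for 0 of the 48 and 0 of 14808 genes tested, with 3 at an unadjusted p under 0.05 and 0 called by DESeq2.

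Set directly against OVA with the genotypes averaged, Jurkat cells at 4 h left 7 of the 48 genes higher and 40 lower, where 39.4% of all genes tested were called higher and 43.2% lower (82.6% in all), with a median of -0.57 beside -0.038 for all genes. Myc was the gene not called. Without KO replicate 2 of Jurkat 4 h the counts were the same. At 30 min the same contrast called 13 higher and 6 lower, where 15.5% of all genes tested were called higher and 14.4% lower (29.9% in all). Tyms led it with 0.29 ± 0.039 (adjusted p = 1.6e-06) on the log2 scale, and 4 of 7 genes for entry into mitosis were higher, among them Ccnb1 (0.10 ± 0.033) and Cdk1 (0.10 ± 0.029). Cdc25a (-0.18 ± 0.031) and Cdk2 (-0.15 ± 0.027) were lower. Of these 19 calls at 30 min, 12 held whichever library was left out. Ccnb1 lost its call without KO replicate 2 of Jurkat 30 min or WT replicate 2 of OVA 30 min. Cdk1 lost its call without WT replicate 1 of Jurkat 30 min.

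KO and WT cells of the same condition differed in few of these genes before 4 h of Jurkat cells. In untreated cells 4 of the 48 were called, all lower in KO, where 6.00% of all genes tested were called higher and 3.97% lower (9.97% in all). With OVA for 30 min 5 were called, 3 higher and 2 lower, where 6.25% of all genes tested were called higher and 6.13% lower (12.4% in all). With Jurkat cells for 30 min 5 were called, 3 higher and 2 lower, where 5.58% of all genes tested were called higher and 3.67% lower (9.25% in all). With OVA for 4 h 5 were called, all lower, where 6.22% of all genes tested were called higher and 6.35% lower (12.6% in all). These 4 counts, each 8.33% or 10.4% of the 48, are near the background. With Jurkat cells for 4 h 18 were called, 6 higher and 12 lower, where 9.37% of all genes tested were called higher and 13.5% lower (22.9% in all). In all, 26 genes were called in none of the 5 conditions, 16 in exactly 1, and Mki67, Ccnd2 and Tpx2 in opposite directions. Leaving out 1 library gave as few as 2 calls in untreated cells (without KO replicate 1, WT replicate 1 or WT replicate 3), 2 with OVA for 30 min (without KO replicate 2, WT replicate 1 or WT replicate 2), 2 with Jurkat cells for 30 min (without KO replicate 3 or WT replicate 2) and 3 with OVA for 4 h (without KO replicate 1, KO replicate 3 or WT replicate 1). The calls that held in every such fit were 0 of the 4 in untreated cells, Ccnd1 and Tpx2 with OVA for 30 min, Ccnd1 with Jurkat cells for 30 min, and Ccnd1, Cdkn1a and Mki67 with OVA for 4 h. Markers of other cells differed between the genotypes as well: 12 basophil and mast cell markers summed in untreated cells to 26.7 ± 3.27 CPM (WT) and 78.5 ± 16.9 CPM (KO), 12 stromal markers to 744 ± 42.7 CPM and 1022 ± 118 CPM, and 12 plasmacytoid dendritic cell markers to 3621 ± 41.2 and 3141 ± 113 CPM (SD, n = 3). Their part in the differences below was not tested.

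**Figure D4:**
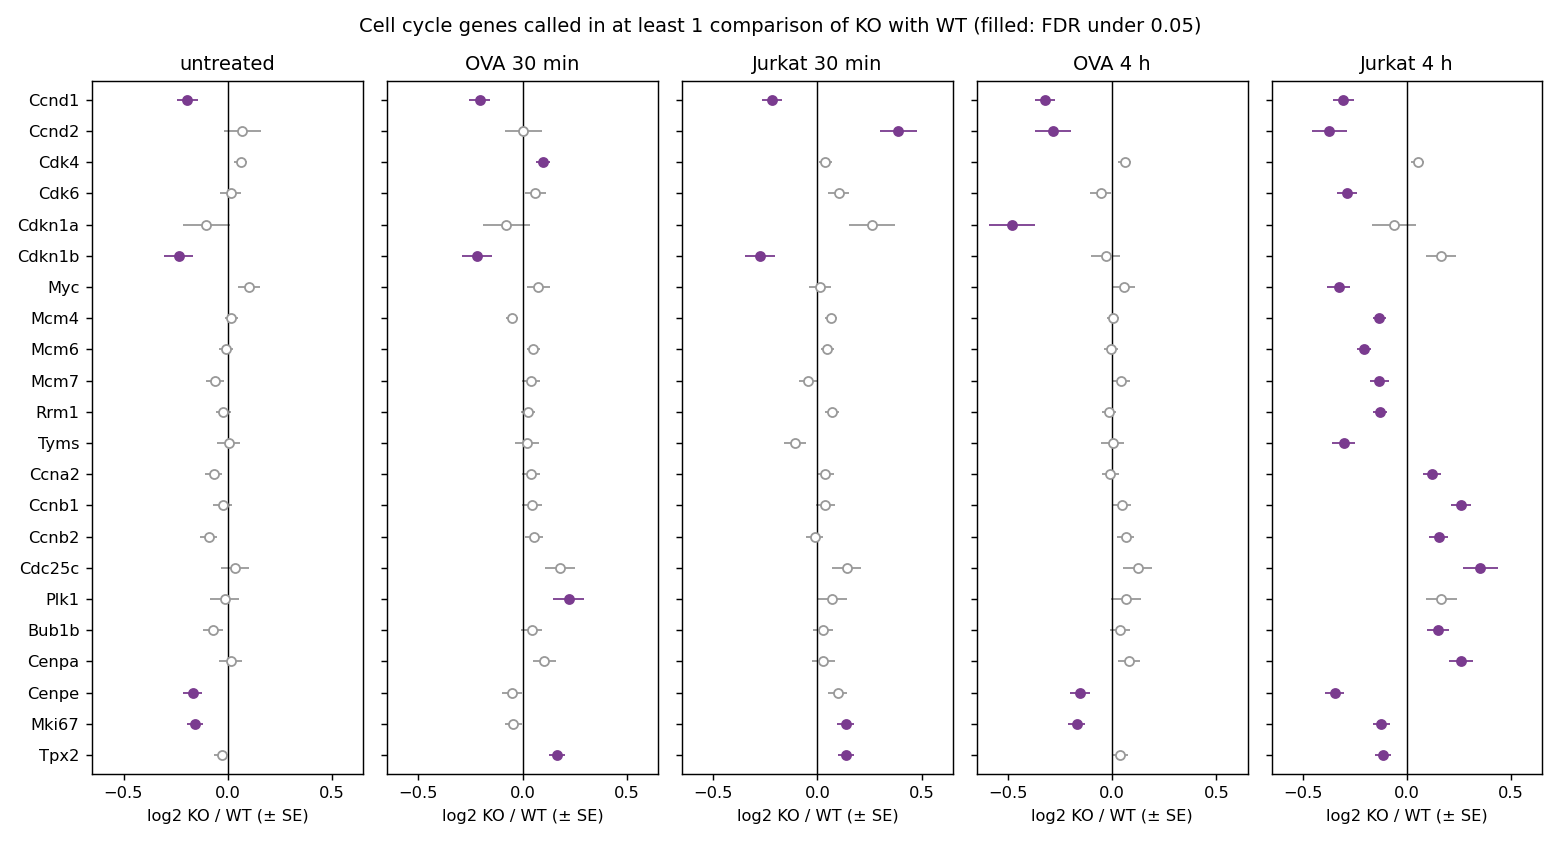
Log2 ratio of KO to WT, with the standard error of the fit, for the 22 genes called in at least 1 of the 5 conditions; filled points were called. Ccnd1 lies left of 0 with a filled point in every panel, and the Jurkat 4 h panel holds 18 filled points where the others hold 4 or 5.

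Ccnd1 was the only gene of the 48 called in all 5 conditions, lower in KO cells each time. Untreated cells had 636, 623 and 655 CPM in WT and 579.8, 548 and 547 CPM in KO. OVA for 30 min gave 555, 611 and 594 CPM in WT and 528, 496 and 501 CPM in KO, and Jurkat cells for 30 min 636, 625 and 649.8 CPM in WT and 569, 539 and 534 CPM in KO. In none of the 5 conditions did a KO library reach the lowest WT library of that condition. The log2 ratios were -0.19 ± 0.049 untreated, -0.21 ± 0.049 and -0.22 ± 0.049 at 30 min of OVA and Jurkat cells, and -0.32 ± 0.049 and -0.31 ± 0.049 at 4 h. The call held in every fit that left out 1 library, except for the untreated cells without WT replicate 3 (adjusted p = 0.051). The 5 comparisons share no library.

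Cdkn1b was lower in KO cells in the 3 earliest conditions. Its untreated libraries held 105, 87.9 and 84.0 CPM in WT and 81.0, 75.9 and 78.6 CPM in KO (-0.24 ± 0.070, adjusted p = 0.029), where the difference was -0.13 without WT replicate 1. That call was lost without WT replicate 1, KO replicate 2 or KO replicate 3. With OVA for 30 min Cdkn1b was 90.8, 90.0 and 81.1 CPM in WT and 78.1, 70.6 and 76.7 CPM in KO. That call was lost without KO replicate 2 or 3 or WT replicate 1 or 2. With Jurkat cells for 30 min Cdkn1b was 82.7, 85.0 and 82.7 CPM in WT and 73.1, 66.7 and 67.2 CPM in KO. There the call was lost without KO replicate 2 or 3 or WT replicate 2. At 4 h it was not called with either OVA (-0.030 ± 0.070) or Jurkat cells (0.16 ± 0.072). Cdkn1a was called in 1 condition, OVA for 4 h, with 162, 159.5 and 143 CPM in WT and 116, 103 and 114 CPM in KO (-0.48 ± 0.11, adjusted p = 0.0031), a call kept in 6 of 6 fits that left out 1 library. Ccnd2 was also lower there (-0.28 ± 0.087), but kept its call in 1 of 6 such fits.

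Mki67 and Cenpe were lower in KO cells in untreated cells and at 4 h. Mki67 held 671, 654 and 683 CPM in WT and 574, 624 and 603 CPM in KO untreated (-0.16 ± 0.040), and 656, 635 and 616 CPM in WT and 545, 574 and 575 CPM in KO with OVA for 4 h (-0.17 ± 0.040, adjusted p = 0.0041). At 30 min of Jurkat cells the order was the other way, 564, 567 and 557 CPM in WT and 609, 618 and 629 CPM in KO (0.14 ± 0.040), kept in 1 of 6 fits without 1 library. With OVA for 30 min the genotypes overlapped, at 616, 609.9 and 629 CPM in WT and 629.8, 613 and 553 CPM in KO. Cenpe held 93.5, 90.3 and 86.8 CPM in WT and 77.1, 84.0 and 79.7 CPM in KO untreated (-0.17 ± 0.046). Top2a, which marks dividing cells like Mki67, was not called in any of the 5 conditions: it held 542, 545 and 529 CPM in WT and 489, 525 and 529 CPM in KO untreated, 514, 501 and 509 CPM in WT and 524, 515 and 505 CPM in KO with OVA for 30 min, and 529, 506 and 504 CPM in WT and 498, 507 and 514 CPM in KO with OVA for 4 h. Mcm5 was likewise never called, with 191, 205 and 212 CPM in WT and 196, 204 and 205 CPM in KO with OVA for 30 min. Myc held 71.9, 77.7 and 77.0 CPM in WT and 80.3, 80.7 and 76.8 CPM in KO there, and 77.1, 83.2 and 83.2 CPM in WT and 85.6, 82.2 and 85.6 CPM in KO with OVA for 4 h, also not called. With OVA for 30 min Cdkn1a held 82.9, 85.2 and 88.0 CPM in WT and 77.2, 86.2 and 78.7 CPM in KO cells, not called.

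At 30 min the genes higher in KO cells were mitotic genes, a cyclin and a kinase. With OVA, Tpx2 held 85.4, 88.4 and 90.8 CPM in WT and 100.2, 97.6 and 99.3 CPM in KO (0.17 ± 0.038, adjusted p = 0.0039), Plk1 35.6, 41.9 and 43.8 CPM in WT and 49.4, 47.6 and 42.8 CPM in KO (0.22 ± 0.075), and Cdk4 161, 165 and 174 CPM in WT and 178, 179.6 and 177 CPM in KO (0.098 ± 0.033). Of these only Tpx2 kept its call in all 6 fits that left out 1 library, and with DESeq2 Plk1 and Cdk4 were not called. With Jurkat cells, Tpx2 held 95.3, 93.4 and 92.4 CPM in WT and 102, 105 and 103 CPM in KO (0.14 ± 0.037) and Ccnd2 118, 114 and 111 CPM in WT and 189, 128 and 133 CPM in KO (0.39 ± 0.087, adjusted p = 0.0042). The Ccnd2 ratio was 0.19 without KO replicate 1 (adjusted p = 0.051), the library that was also high for Cdkn1a.

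With Jurkat cells for 4 h the called genes split by role only in part, and 12 of the 18 kept their call whichever library was left out. Without KO replicate 2, the library high in Rn45s, 14 were called, 4 higher and 10 lower, and fitting the compared groups alone left 11, 4 higher and 7 lower. Of the 7 genes for entry into mitosis 4 were higher in KO cells and 0 lower, of the 9 licensing genes 0 were higher and 3 lower, and of the 4 genes of nucleotide supply and the fork 0 were higher and 2 lower, beside the shares of all genes given above. Of these, Ccna2 lost its call without KO replicate 1, 2 or 3 or WT replicate 2, Ccnb2 without KO replicate 1 or WT replicate 2, and Mcm7 without KO replicate 1 or 3 or WT replicate 1 or 3. The called spindle, chromosome and checkpoint genes went both ways, with Bub1b and Cenpa higher and Cenpe, Mki67 and Tpx2 lower in KO cells. Bub1b, Mki67 and Tpx2 lost their calls in 5, 4 and 3 of the 6 fits without 1 library. Ccnb1, cyclin B1, held 25.8, 26.6 and 26.9 CPM in WT and 30.7, 32.1 and 32.0 CPM in KO (0.26 ± 0.049, adjusted p = 0.00030), and Cdc25c 6.03, 6.07 and 5.74 CPM in WT and 8.51, 7.18 and 7.10 CPM in KO (0.35 ± 0.083). Cenpa, the centromeric histone, held 42.6, 37.1 and 45.3 CPM in WT and 49.2, 48.9 and 51.6 CPM in KO (0.26 ± 0.058). These 3 genes fell after Jurkat cells in both genotypes and were less low in KO cells, with no overlap of libraries. Bub1b and Ccna2 were also called higher, but with DESeq2's size factors neither was.

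Among the 12 lower genes, Cenpe held 115, 119 and 121 CPM in WT and 95.4, 90.1 and 94.2 CPM in KO (-0.35 ± 0.046, adjusted p = 5.0e-06), the smallest p of the 18. Mcm6 held 186, 179.7 and 178 CPM in WT and 157, 158 and 157 CPM in KO (-0.21 ± 0.033), and Mcm4, Mcm7 and Rrm1 had ratios of -0.13, -0.13 and -0.13. The cyclin D group was lower in 3 of 5: Ccnd1, Ccnd2 (-0.37 ± 0.085) and Cdk6, with 161, 167 and 167 CPM in WT and 132, 139 and 134 CPM in KO (-0.29 ± 0.048). Myc (-0.33 ± 0.054), Tyms (-0.30 ± 0.054), Mki67 (-0.12 ± 0.041) and Tpx2 (-0.11 ± 0.038) complete the 12. The split of 6 higher and 12 lower depends on the scale: with total counts 15 were higher and 7 lower, of which 13 were among the 18, and with DESeq2's size factors 4 were higher and 14 lower. Mcm4, Mcm7, Rrm1, Mki67 and Tpx2 lost their call with total counts, and none of the 18 changed sign. The 12 T-lineage markers of low level summed to 67.7 CPM (54.4 to 74.4) in WT and 48.7 CPM (42.8 to 55.6) in KO cells of this comparison, and the basophil and mast cell markers to 62.4 ± 7.67 CPM in WT and 122 ± 16.9 CPM in KO. Stromal markers summed to 1197 ± 84.2 CPM in WT and 1537 ± 162 CPM in KO and plasmacytoid dendritic cell markers to 5452 ± 538 and 4364 ± 259.6 CPM, with no overlap of libraries in either. The part of these lists in it was not tested.

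Related genes outside the 48 were called as follows in this comparison. Of all genes tested, 9.37% were called higher and 13.5% lower in KO cells. Of 50 other DNA replication genes 0 were higher and 15 lower in KO cells, with Rfc3, a clamp loader subunit, at -0.38 ± 0.059. Of 60 other mitotic genes 10 were higher and 5 lower, with Kif20a, a kinesin of cytokinesis, at 0.26 ± 0.049, Fbxo5, an inhibitor of the anaphase-promoting complex, at 0.25 ± 0.063 and Pttg1 at -0.32 ± 0.070. Of the 20 p53 targets 6 were higher and 2 lower, with Phlda3 at 0.55 ± 0.078 and Mdm2 at -0.26 ± 0.034. In untreated cells 3 of the 50 replication genes and 6 of the 60 mitotic genes were lower in KO cells and 0 of either list higher. There 6.00% of all genes tested were called higher and 3.97% lower. Ckap2l, a spindle protein, led these falls at -0.29 ± 0.045. Cdkn1c, which encodes the CDK inhibitor p57, was higher in untreated KO cells at 0.80 ± 0.13, beside the stromal and basophil markers given above.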

How the data were processed

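RNA was sequenced in 30 libraries of FLT3L-grown bone marrow dendritic cells, with total RNA taken through Trizol and a column with DNase and libraries prepared using the TruSeq RNA Library Prep Kit v2, per the labels' protocols. The authors deposited 1 table of raw read counts per gene, made with no recorded normalization. Per the submitters' processing notes, which give no roles or order, STAR 2.5, Subread, featureCounts 1.5.0-p1, DESeq2 and the mm10 build were used. The sources used here do not say how strand, annotation, multimapping reads or human reads were handled.

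All 25611 rows named a gene. From the counts, genes with enough reads by group (edgeR's filterByExpr, 14808 genes, 99.99% of counts) were fitted together over all 30 libraries with edgeR 4.0.16 in R 4.3.3, with TMM scaling and the quasi-likelihood F test, in 19 contrasts, and p-values were adjusted by Benjamini-Hochberg over all genes tested. The SE of a log2 fold change was its size divided by the square root of F. RPKM used the union of exons in GENCODE M21. A single count was worth 0.0184 to 0.0965 CPM. The procedure was tested on simulated data for KO against WT untreated (14545 genes): it called 52.2% of genes changed 1.2-fold, 80.6% of those changed 1.5-fold and 93.9% of those changed 2-fold, with 7 false calls. No 2 libraries of a group agreed within sampling noise (chi-square per degree of freedom 2.28 to 16.7 in 9 of the 10 groups). In KO Jurkat 4 h it was 4.98 for replicates 1 and 3, and 129 and 134 for replicate 2 against them. Without the rows Rn45s, Lars2 and Mir6236, picked after seeing this, these became 4.74, 6.58 and 4.83.

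The members and gene lists were chosen with earlier results of these data known. Every library's value is given for the 3 called genes of smallest p in each direction of each comparison of genotypes or of a treatment with untreated cells, and for Mki67, Top2a, Mcm5, Ccnd1, Cdkn1a and Myc. Up to 2 called genes in each direction are named per other list. Alternatives were DESeq2 1.42.0, its size factors, scaling by total counts, other filters on low counts, fits of the compared groups alone, a replicate block and leaving out each library. Sequences came from the RefSeq promoter table (GRCm38.p6).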

Additional observations from a re-analysis of the deposited data

Results flagged for a closer look

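In all, 9 of the 48 genes had a response to 4 h of Jurkat cells that differed between the genotypes, by the interaction term of the edgeR fit (KO response minus WT response, log2 scale). Myc had -0.43 ± 0.076 (adjusted p = 0.0017), from 0.20 in WT and -0.23 in KO cells. Cdk6 had -0.30 ± 0.069 (adjusted p = 0.011), from 0.83 in WT and 0.53 in KO cells. Ccnb1 had 0.28 ± 0.066 (adjusted p = 0.015), from -0.46 in WT and -0.17 in KO cells. Mcm6 had -0.20 ± 0.047 (adjusted p = 0.015), from -0.41 in WT and -0.61 in KO cells. These 4 calls held in all 12 fits that left out 1 library, and that of Mcm6 was lost with total counts as the scale and with a fit of only the compared groups. Tyms had -0.31 ± 0.077 (adjusted p = 0.020), from 0.69 in WT and 0.38 in KO cells. Cdkn1b had 0.40 ± 0.10 (adjusted p = 0.022), from -0.47 in WT and -0.074 in KO cells. Ccnb2 had 0.24 ± 0.062 (adjusted p = 0.023), from -0.68 in WT and -0.43 in KO cells. Ccnd2 had -0.44 ± 0.12 (adjusted p = 0.034), from 3.72 in WT and 3.27 in KO cells. Mcm4 had -0.15 ± 0.043 (adjusted p = 0.045), from -0.55 in WT and -0.70 in KO cells. These calls held in 9, 8, 7, 4 and 3 of the 12 fits in that order, and those of Tyms and Mcm4 were lost with total counts and those of Tyms, Cdkn1b and Mcm4 with only the compared groups. Cdkn1b was also the gene of the 48 whose untreated WT libraries were least even, at 105, 87.9 and 84.0 CPM, and its difference was 0.29 at the lowest of these fits. The T-lineage markers of low level summed in the same libraries to 67.7 CPM (54.4 to 74.4) in WT and 48.7 CPM (42.8 to 55.6) in KO cells. These ranges overlap, and the part of these markers in the differences of response was not tested.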

How the results depend on the processing

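Directions of the called genes held under every alternative except scaling by total counts, which moved the median of all genes at Jurkat 4 h to -0.42 in WT, -0.37 in KO and -0.40 in the average of both. There 6 values changed sign, becoming -0.0078 for Cenpe, -0.31 for Tpx2 and -0.20 for Myc at Jurkat 4 h in WT, -0.12 for Cenpe in KO, and -0.017 for Cenpe and -0.27 for Tpx2 in Jurkat against OVA at 4 h, since the shift itself is larger than these changes. Of 265 calls, 236 kept direction and threshold under total counts, 261 under DESeq2's size factors, 260 under DESeq2, 264 under the stricter and 251 under no filter on low counts, and 225 when the compared groups were fitted alone, with fewer residual degrees of freedom. With total counts the called genes were 9 (7 higher, 2 lower) for Jurkat 30 min in KO. Fitting the compared groups alone left 1 for KO against WT untreated, 11 for KO against WT at Jurkat 4 h, 5 for OVA 30 min in WT, 5 for Jurkat 30 min in KO, 1 for the difference of responses to OVA at 4 h and 5 for that to Jurkat at 4 h. DESeq2 called 3 for the difference of responses to Jurkat at 30 min, whose cause was not tested. KO against WT split 1 higher and 3 lower by DESeq2's size factors and 3 and 1 by total counts at OVA 30 min, and 1 and 4 by total counts at OVA 4 h.

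The summed level of each role in WT cells, Jurkat 4 h over untreated, was 2.48 for the cyclin D group, 0.615 for cyclin E, 8.11 for CDK inhibitors, 0.602 for transcription factors, 0.649 for licensing, 0.756 for nucleotide supply, 0.616 for entry into mitosis and 0.689 for the spindle group. With total counts these were 1.87, 0.466, 6.13, 0.456, 0.492, 0.572, 0.466 and 0.521. With DESeq2's size factors they were 0.644 for cyclin E, 8.48 for CDK inhibitors, 0.629 for transcription factors, 0.679 for licensing, 0.790 for nucleotide supply and 0.720 for the spindle group.

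Leaving out 1 library at a time gave these counts. For KO against WT they were 2 to 3 untreated, 2 to 5 at OVA 30 min, 2 to 4 at Jurkat 30 min, 3 to 5 at OVA 4 h and 14 to 17 at Jurkat 4 h. Against untreated WT cells they were 3 to 8, 13 to 17, 9 to 16 and 47 to 48 for OVA 30 min, Jurkat 30 min, OVA 4 h and Jurkat 4 h. Against untreated KO cells they were 0 to 1, 4 to 14, 2 to 4 and 46 in that order. For the difference of responses they were 0, 0 to 3, 0 and 5 to 9, and for Jurkat against OVA 14 to 22 at 30 min and 47 to 48 at 4 h. Deviations of same-numbered libraries correlated weakly at most (-0.11 to 0.13). In WT cells each same-numbered pair of untreated with Jurkat 30 min and with OVA 4 h still correlated more than differently numbered pairs. With OVA 30 min WT replicate 1 had 0.13, against at most -0.013 for other numbers. The same KO comparisons did not show this. The labels do not state a pairing, so the main fit took none. A replicate block kept 262 of 265 calls and gave 16 calls for Jurkat 30 min in KO, 14 for OVA 4 h in WT and 8 for the difference of responses at Jurkat 4 h. Small changes may have been missed: the simulated test recovered 52.2% of 1.2-fold changes. Its changed genes were drawn at random from all genes tested, so it does not give the rate for the 48. The part of depth in this was not tested.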
